A study of Mus musculus with 12 samples.

Results

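The protocadherins and cadherins numbered as Cdh genes were followed here in the adult hippocampus of mice whose dams had access to ethanol in early pregnancy. Members were all probes whose gene symbol begins with Pcdh, or with Cdh and a digit, except Cdh5, the cadherin of endothelium. These were 144 of the 45281 probes on the array, for 87 genes. The clustered protocadherins (Pcdha, Pcdhb and Pcdhg) took 67 probes and 54 genes, the non-clustered protocadherins 27 probes and 11 genes, and the cadherins 50 probes and 22 genes. A probe was tested where its signal stood above the negative controls (detection p-value under 0.05) on at least 6 of the 12 arrays. That left 65 member probes for 46 genes, among 20172 probes in all.

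The study measured hippocampal RNA of female C57BL/6J mice, 12 weeks old, with 1 Illumina bead array per sample. There were 6 EtOH arrays and 6 Control arrays. EtOH offspring came from dams with a free choice of ethanol at 10% v/v, available from day 0.5 after mating (days post-coitum) and ending at day 8.5. The labels carry one wording of treatment for all samples, so the groups rest on the sample titles, and what the Control dams drank was not used here. Litters are not named in the labels, so p-values describe the spread between arrays, some of which may come from siblings. In this bulk tissue, fewer cells of a type and less RNA per cell cannot be told apart.

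Cadherins are calcium-dependent adhesion proteins that bind across the gap between cells, largely like to like. Type I and type II classical cadherins hold catenins at their inner side, which tie them to actin, and at synapses they help to match and strengthen the contact between neurons. Clustered protocadherins are encoded in a row of alternative first exons (alpha and gamma) and of single-exon genes (beta). Each neuron switches on a few of them by choice of promoter under CTCF and DNA methylation, and the resulting mixture marks the surface of that neuron as its own. Non-clustered protocadherins, among them the delta-1 and delta-2 groups, act more like single adhesion and signalling molecules in particular circuits.

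The arrays were alike in quality. Median raw intensity lay between 126 and 146.9, between 19748 and 20858 probes were detected per array, and 63 to 73 of them were member probes. All 13 hippocampal marker genes examined were above background, with a mean log2 intensity of 9.56 to 9.97 on EtOH arrays and 9.72 to 9.95 on Control arrays. Choroid plexus genes stood high on EtOH 2, EtOH 4, Control 2 and Control 4, where the 5 detected ones averaged 10.36 to 11.60, against 6.58 to 7.52 on the other 8 arrays. Kcne2, Folr1, Otx2 and F5 of that list did not pass the filter. The arrays lay on 2 chips of 6, the first with 4 EtOH and 2 Control arrays and the second with 2 EtOH and 4 Control arrays, and the chip is a term of the fit.

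The promoters of 3 genes are shown because Cdh12, Pcdh9 and Pcdh8 had an unadjusted p under 0.05 and a window in the table. Each window runs from 250 bases before to 50 bases after a transcription start in RefSeq (GRCm38.p6), 5′ to 3′ on the strand of the gene, with CG, the dinucleotide that DNA methylation acts on, in capitals. Cdh12 lies on chromosome 15 (chr15:21111202-21111501, plus strand) and its window holds 9 CG.
Cdh12: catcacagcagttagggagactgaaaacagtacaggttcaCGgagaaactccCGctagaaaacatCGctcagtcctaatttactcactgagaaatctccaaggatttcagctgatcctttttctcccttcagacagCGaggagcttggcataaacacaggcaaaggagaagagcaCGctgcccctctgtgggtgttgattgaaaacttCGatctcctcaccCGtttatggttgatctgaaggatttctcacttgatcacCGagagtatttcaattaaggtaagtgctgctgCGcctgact
Pcdh9 lies on chromosome 14 (chr14:93890630-93890929, minus strand) and its first window, shown here, holds 18 CG, while another holds 19.
Pcdh9: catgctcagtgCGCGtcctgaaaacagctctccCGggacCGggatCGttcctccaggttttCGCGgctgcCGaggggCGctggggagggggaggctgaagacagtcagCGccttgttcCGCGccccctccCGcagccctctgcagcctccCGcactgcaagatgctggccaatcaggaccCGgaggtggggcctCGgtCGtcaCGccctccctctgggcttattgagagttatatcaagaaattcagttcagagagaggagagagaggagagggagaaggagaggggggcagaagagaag
Pcdh8 lies on the same chromosome (chr14:79771263-79771562, minus strand) and its window holds 14 CG.
Pcdh8: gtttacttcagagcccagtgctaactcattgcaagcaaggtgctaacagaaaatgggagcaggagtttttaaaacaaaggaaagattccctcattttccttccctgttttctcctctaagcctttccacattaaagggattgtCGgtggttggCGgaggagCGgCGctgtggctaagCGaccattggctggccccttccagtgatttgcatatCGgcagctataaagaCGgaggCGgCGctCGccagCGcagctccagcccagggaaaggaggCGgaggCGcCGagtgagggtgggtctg

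A window was listed for 22 of the 87 member genes, none of them clustered. The median number of CG was 13 over these 22 genes (first window of each). Over all 32851 windows of the table, which can hold several of 1 gene, the median was 7, so the units differ. Of all these windows 94.6% hold at least 1 CG, a motif that reads the same on both strands. Over the 14 genes with a tested probe the median was 16, and over the 8 without one it was 10. These counts describe the letters of the windows and hold no measurement of methylation.

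Many members were near background. Of the 144 probes, 50 were detected on all 12 arrays and 54 on none. The share that passed the filter was 45.1% for members and 44.5% for all probes. It was 44.8% for clustered protocadherins, 59.3% for non-clustered protocadherins and 38% for cadherins. Among clustered genes, 7 of 12 alpha, 12 of 22 beta and 8 of 20 gamma genes kept a probe. The alpha genes without a tested probe were Pcdha1, Pcdha3, Pcdha5, Pcdha9 and Pcdhac1. Those of the beta set were Pcdhb2, Pcdhb4, Pcdhb5, Pcdhb9, Pcdhb11, Pcdhb13, Pcdhb15, Pcdhb17, Pcdhb18 and Pcdhb21. Those of the gamma set were Pcdhga1, Pcdhga3, Pcdhga5, Pcdhga6, Pcdhga7, Pcdhga9, Pcdhga12, Pcdhgb2, Pcdhgb5, Pcdhgb7, Pcdhgb8 and Pcdhgc4. All 54 clustered genes lie on chromosome 18. Alpha and gamma transcripts share constant exons and their annotated spans overlap (12 of 12 and 20 of 20 genes), so a probe named for one isoform may read others and its isoform is uncertain. The 22 beta genes, which have no such shared exons, do not overlap one another.

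**Figure D1:**
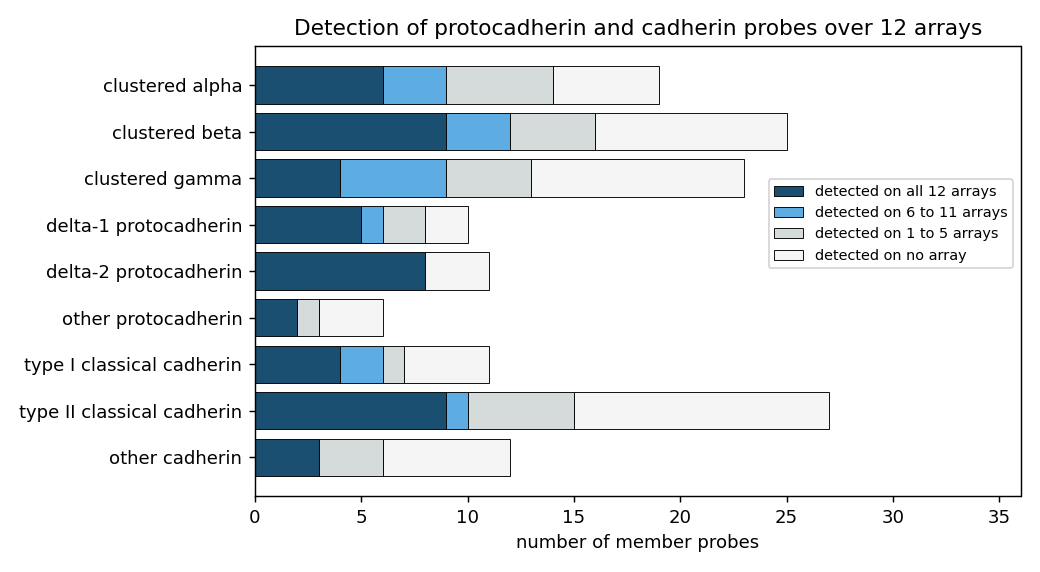
Number of member probes (horizontal axis) in each class (vertical axis), divided by the number of arrays on which the probe was detected. All 8 tested delta-2 probes were detected on all 12 arrays, while 54 of the 144 member probes were detected on none.

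Detection of genes without a tested probe is given here by class. Pcdhac1 and Pcdhgc4, C-type isoforms, the gamma one required for neuronal survival in mice, were detected on 4 and 2 of 12 arrays. Pcdh12 of endothelium, Pcdh18, Cdh17 of intestine and Cdh26 were detected on no array. Cdh16 of kidney was detected on 1 array. Cdh23 and Pcdh15, which form the tip links of inner ear hair cells, had no probe detected on more than 2 arrays. Among type II cadherins, Cdh9, known from mossy fibre synapses of mice, and Cdh18 were detected on no array, each by a single probe, which says only that this probe did not rise above background. Cdh11, Cdh19, Cdh20, Cdh24 and the type I cadherin Cdh3 also had no tested probe. Neither group carried the weak signals alone. Of the 79 probes that did not pass, 25 were detected somewhere, 9 of them on more EtOH arrays, 11 on more Control arrays and 5 on equal numbers, with an excess of at most 2 arrays either way.

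No member differed between EtOH and Control after adjustment. By limma with Benjamini-Hochberg adjustment over all 20172 tested probes, 0 of 65 members passed 0.05 (lowest adjusted p = 1.00), and the background was 0% of all probes. At an unadjusted p under 0.05, 5 members (7.69%) stood apart, against 3.48% of all probes. Of these, 4 had a higher value in EtOH and 1 a lower value, where 1.75% and 1.73% of all probes did. Groups that do not overlap at all were found in 0 of 65 members and 0.134% of all probes. All differences below are EtOH minus Control in log2 intensity, adjusted for the chip, so they can depart from the plain difference of the group values.

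More members had a higher than a lower value in EtOH. A higher value in EtOH was found for 42 of 65 members (64.6%), against 51.2% of all tested probes. The median difference was 0.02 for members and 0.0025 for all probes. Leaving out 1 array at a time, the share of members ran from 51.6% without Control 2 to 71.9% without EtOH 4. It was 53.8% without the 4 arrays rich in choroid plexus transcripts, a setting chosen after seeing the data, 60.0% on the first chip alone, 52.3% on the second alone and 67.7% with no chip term. Over all tested probes the share ran from 49.98% to 52.71% with 1 array left out, and it was 49.99% with no chip term. With median scaling in place of quantile normalization the share was 76.9% of members and 64.9% of all probes. By family, 20 of 30 clustered probes had a higher value (median 0.03), as did 10 of 16 non-clustered probes (median 0.02) and 12 of 19 cadherin probes (median 0.0045).

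Marker genes of some cell types and regions also had values mostly on one side, and others did so less, with 0 called after adjustment. Of the choroid plexus markers, 0 had a higher and 5 a lower value in EtOH (median -0.59). These values are adjusted for chip and their intervals are wide (Ttr -4.58 to 2.38). Of the rich arrays, EtOH 2, EtOH 4 and Control 2 lay on the first chip and Control 4 on the second. Unadjusted means for EtOH and Control were 11.34 and 11.60 for Ttr, 7.44 and 7.53 for Clic6 and 7.84 and 7.98 for Sostdc1. Those of Kl (8.51 and 8.38) and Calml4 (6.10 and 6.01) were higher in EtOH. The counts of higher and lower values were 4 and 3 for oligodendrocytes and 3 and 2 for striatum. They were 2 and 4 for thalamus and 3 and 6 for endothelium. Of the meningeal and vascular fibroblast markers, 12 of 12 were tested, 3 with a higher and 9 with a lower value in EtOH (median -0.35). Mgp, Slc22a6 and Slc6a13 had an unadjusted p under 0.05, at -0.59, -0.55 and -0.45. The mean of that list ran from 7.07 to 7.88 on EtOH arrays and from 7.28 to 8.14 on Control arrays. Of the interneuron markers, 9 of 10 were tested, 8 with a higher and 1 with a lower value (median 0.10), the lower one being Npy (-0.16). Their mean ran from 10.91 to 11.08 on EtOH arrays and from 10.80 to 11.05 on Control arrays. Of the neocortex markers, 4 of 5 had a higher value (median 0.11), with Cux2 at 0.50. Of the hippocampal markers, 3 had a higher and 10 a lower value (median -0.10), with Amigo2 at -0.20. The part of these cells and regions in the members' values was not tested.

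The precision bounds what could have been seen. The residual SD of a member was 0.20 at the median, against 0.158 for all tested probes. The 95% confidence interval of a member's difference reached 0.25 to either side at the median, with a range of 0.13 to 0.54, against 0.20 for all probes. For 54 of 65 members the whole interval lay within 0.5 of 0 on the log2 scale, against 18356 of all 20172 probes.

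**Figure D2:**
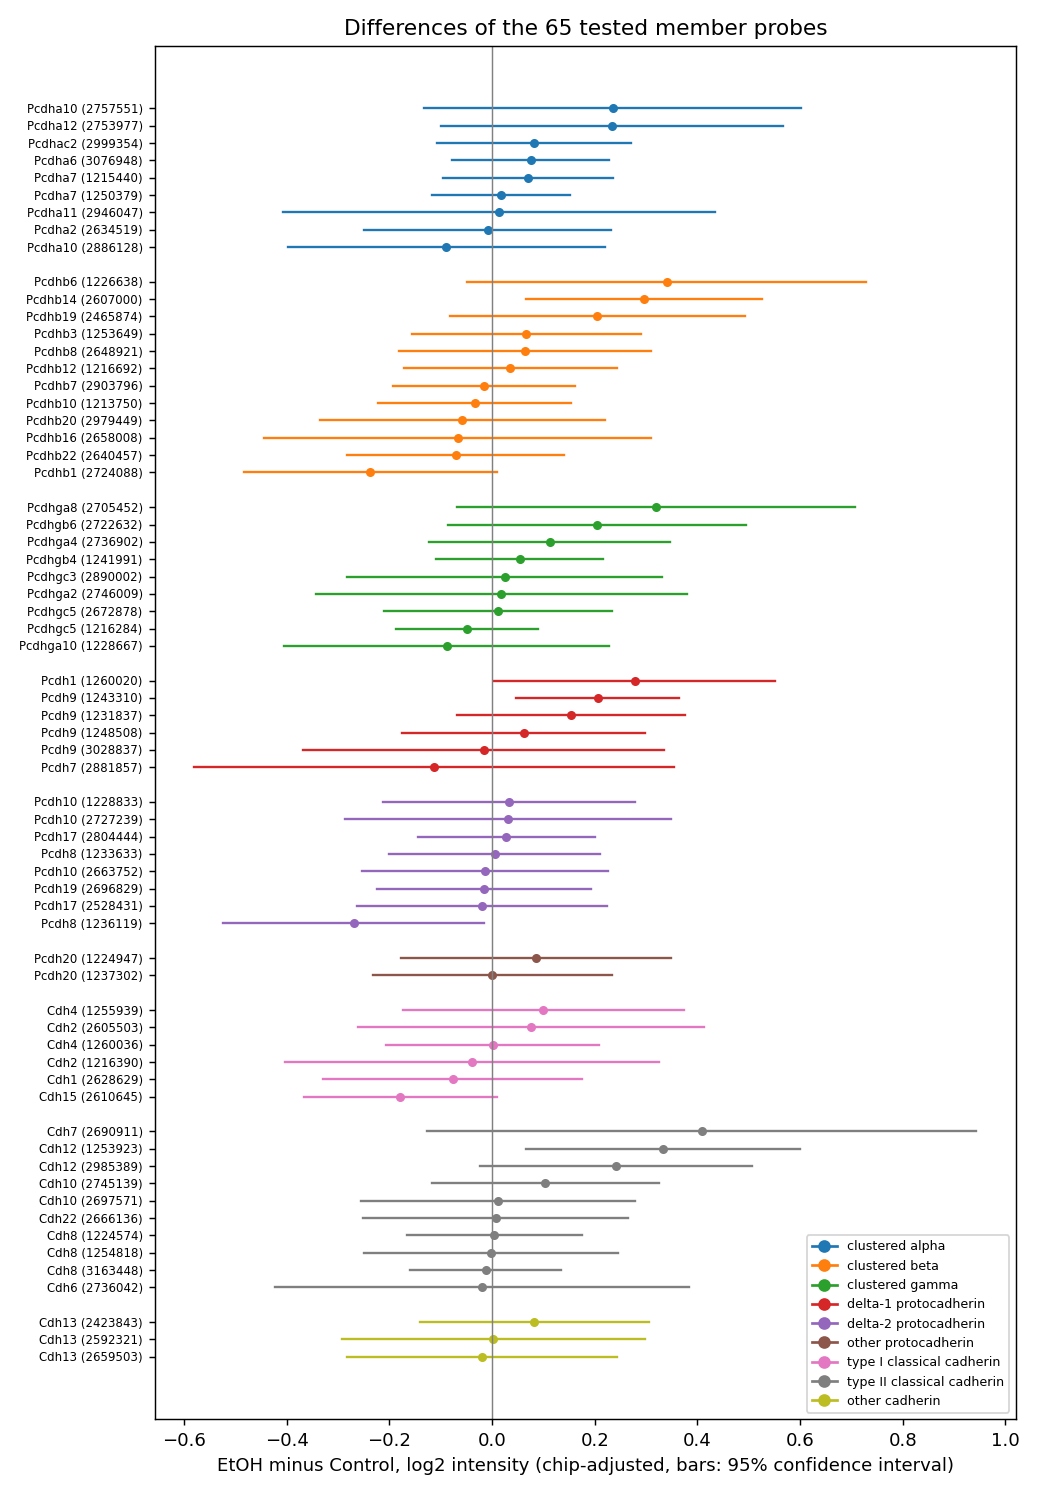
Difference between EtOH and Control (horizontal axis, log2 intensity, adjusted for chip) of the 65 tested member probes, grouped and coloured by class, with bars for the 95% confidence interval and the last digits of the probe name in brackets. The 5 intervals that leave out 0 belong to Pcdh9, Pcdhb14, Cdh12 and Pcdh1 on the higher side and Pcdh8 on the lower, and no member passed after adjustment.

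Among the clustered alpha genes, differences ran on both sides of 0 and were small beside their intervals. Pcdha12 read 5.62, 6.15 and 6.33 (lowest, median and highest log2 intensity of 6 arrays) in EtOH and 5.41, 5.88 and 6.13 in Control. The groups overlapped, and the Control median was exceeded on 5 of 6 EtOH arrays. The difference of Pcdha12 was 0.23 (95% interval -0.10 to 0.57), with 0.03 on the first chip and 0.43 on the second, and 0.0893 without background correction. Pcdha10 shows why 1 probe is not enough: its difference was 0.23 by one probe (interval -0.13 to 0.60) and -0.09 by the other (-0.40 to 0.22). By the probe with the higher value, Pcdha10 read 5.35, 5.78 and 6.24 in EtOH and 5.14, 5.73 and 5.91 in Control, and 3 of 6 EtOH arrays exceeded the Control median. Pcdha11, the alpha member that varied most, had a residual SD of 0.36 and a difference of 0.01. It ran from 5.37 to 6.22 in EtOH and from 5.24 to 6.23 in Control, so the groups covered the same range. Pcdha6 (difference 0.08, residual SD 0.10) and the 2 tested probes of Pcdha7 (0.07 and 0.02) were steadier, as was Pcdhac2 (0.08, residual SD 0.14), the C-type isoform that serotonergic axons of mice need to space themselves. Other probes of Pcdha6 and Pcdha7 were detected on 3 arrays at most and were not tested. Their EtOH means were 4.82 to 5.22, against 10.21 to 11.91 for the tested ones. Pcdha2 had a difference of -0.0087.

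Among the beta genes, each a single exon with its own promoter, Pcdhb14 had the lowest unadjusted p. It read 6.21, 6.31 and 6.60 in EtOH and 5.84, 6.15 and 6.45 in Control. Every EtOH array stood above the Control median, but Control 5 reached into the EtOH range and Control 2 was lowest. Means came to 6.38 ± 0.16 for EtOH and 6.12 ± 0.21 for Control (SD, n = 6 each). The difference was 0.30 (interval 0.07 to 0.53), with a limma adjusted p of 1.00. Without the 4 arrays rich in choroid plexus transcripts it was 0.18. Pcdhb1 pointed the other way. It read 5.12, 5.39 and 5.71 in EtOH and 5.33, 5.46 and 5.99 in Control, with 5 of 6 EtOH arrays below the Control median and a difference of -0.24 (interval -0.48 to 0.01). Its value came to -0.13 without Control 2, the highest Control array for this probe. Pcdhb6 was the noisiest beta gene, with a residual SD of 0.33. The tested probe of Pcdhb6 was detected on 4 EtOH and 3 Control arrays, and the other probe, not tested, on 1 array. The tested probe read 4.99, 5.65 and 5.89 in EtOH and 4.82, 5.23 and 5.86 in Control. Its difference of 0.34 had an interval of -0.05 to 0.73. Pcdhb22 was lower than the Control median on 5 of 6 EtOH arrays (6.91, 6.99 and 7.14 in EtOH, 6.68, 7.10 and 7.23 in Control), and its difference was -0.07. The other 8 beta probes had differences from -0.07 (Pcdhb16) to 0.20 (Pcdhb19, which gave -0.10 on the first chip and 0.51 on the second).

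The gamma genes gave no difference past even the unadjusted threshold. Pcdhga8 read 5.14, 5.70 and 6.17 in EtOH and 5.14, 5.28 and 5.90 in Control. The groups shared their lowest level and overlapped over most of their range, though 5 of 6 EtOH arrays exceeded the Control median. The probe of Pcdhga8 was detected on 5 EtOH and 3 Control arrays. Its difference was 0.32 (interval -0.07 to 0.71). Pcdhgb6 was above the Control median on 6 of 6 EtOH arrays (5.95, 6.10 and 6.27 in EtOH, 5.49, 5.89 and 6.18 in Control). On the first chip alone, however, the sign of its difference turned (0.20 over both chips, -0.07 on the first, 0.48 on the second). Pcdhgc5, a C-type isoform of mature neurons, was among the steadiest members by its probe ILMN_1216284 (residual SD 0.09), with 8.02, 8.06 and 8.21 in EtOH and 7.99, 8.20 and 8.24 in Control. Its difference was -0.05 with an interval of only -0.19 to 0.09, and its second probe gave 0.01. The other 5 gamma probes lay between -0.09 (Pcdhga10) and 0.11 (Pcdhga4).

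Of the delta-1 protocadherins, Pcdh9, a protocadherin of cortical and hippocampal neurons, was read by 4 tested probes that did not move together. The probe ILMN_1243310 read 7.14, 7.28 and 7.67 in EtOH and 6.91, 7.26 and 7.40 in Control. Only 3 of 6 EtOH arrays exceeded the Control median, and the groups overlapped widely. Its difference was 0.21 (interval 0.05 to 0.36, limma adjusted p = 1.00), and 0.10 without the chip term. Of the members it had the lowest p for the chip, being higher by 0.31 on the second, with a limma adjusted p for the chip of 0.0685. On each chip by itself the difference was 0.20 and 0.22. The other probes of Pcdh9 gave 0.15, 0.06 and -0.02. The last of these had the larger spread, with 8.17, 8.74 and 9.15 in EtOH and 8.12, 8.57 and 9.04 in Control and a residual SD of 0.30.

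Pcdh1, a delta-1 protocadherin also of airway epithelium and endothelium, read 5.87, 6.12 and 6.31 in EtOH and 5.40, 5.98 and 6.21 in Control. Control 1 and Control 2, both on the first chip, were the lowest arrays, and the other 4 Control arrays lay inside the EtOH range. Its difference was 0.28 (interval 0.004 to 0.55, limma adjusted p = 1.00). It was 0.14 without Control 1, and within chips it was 0.57 on the first and -0.02 on the second. Pcdh7 was the most variable protocadherin outside the cluster. It read 5.32, 5.62 and 6.01 in EtOH and 4.87, 5.67 and 6.30 in Control, with the lowest and the highest array both in Control, and gave a difference of -0.11 with a residual SD of 0.40. On the first chip the difference was 0.16 and on the second -0.38. Other probes of Pcdh7 were detected on 1 array at most and were not tested.

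Among the delta-2 protocadherins, Pcdh8 was the only member with a lower value at an unadjusted p under 0.05. In rat hippocampal neurons its product, arcadlin, is induced by activity and draws N-cadherin from the synaptic membrane. The probe ILMN_1236119 read 5.73, 6.12 and 6.30 in EtOH and 6.04, 6.20 and 6.59 in Control. Control 1 and Control 6 were high and EtOH 6 was low, while the other arrays lay within 6.00 to 6.30 in both groups. Means came to 6.07 ± 0.19 for EtOH and 6.29 ± 0.23 for Control (SD, n = 6 each). The difference was -0.27 (interval -0.52 to -0.01, limma adjusted p = 1.00), and -0.18 without EtOH 6. A second Pcdh8 probe gave 0.0046 (interval -0.20 to 0.21). Pcdh17, which shapes presynaptic assembly in mouse corticobasal circuits, was steady. Its probe ILMN_2804444 read 10.49, 10.65 and 10.86 in EtOH and 10.45, 10.54 and 10.76 in Control, and the gene's 2 probes gave differences of 0.03 and -0.02. Pcdh10, known in mice for activity-driven synapse elimination, gave 0.03, 0.03 and -0.01 by 3 probes. Pcdh19, whose human counterpart is a gene of X-linked epilepsy, gave -0.02 (interval -0.22 to 0.19).

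Pcdh20 varied more between arrays than between groups. Its probe ILMN_1237302 read 11.41, 11.78 and 11.89 in EtOH and 11.43, 11.73 and 11.81 in Control. The 4 low arrays were EtOH 2, EtOH 6, Control 4 and Control 6, in each group a pair, and the other probe was low on the same 4. The differences were 0.00051 for this probe and 0.09 for the other, which read 9.16, 9.57 and 9.75 in EtOH and 9.04, 9.46 and 9.59 in Control.

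**Figure D3:**
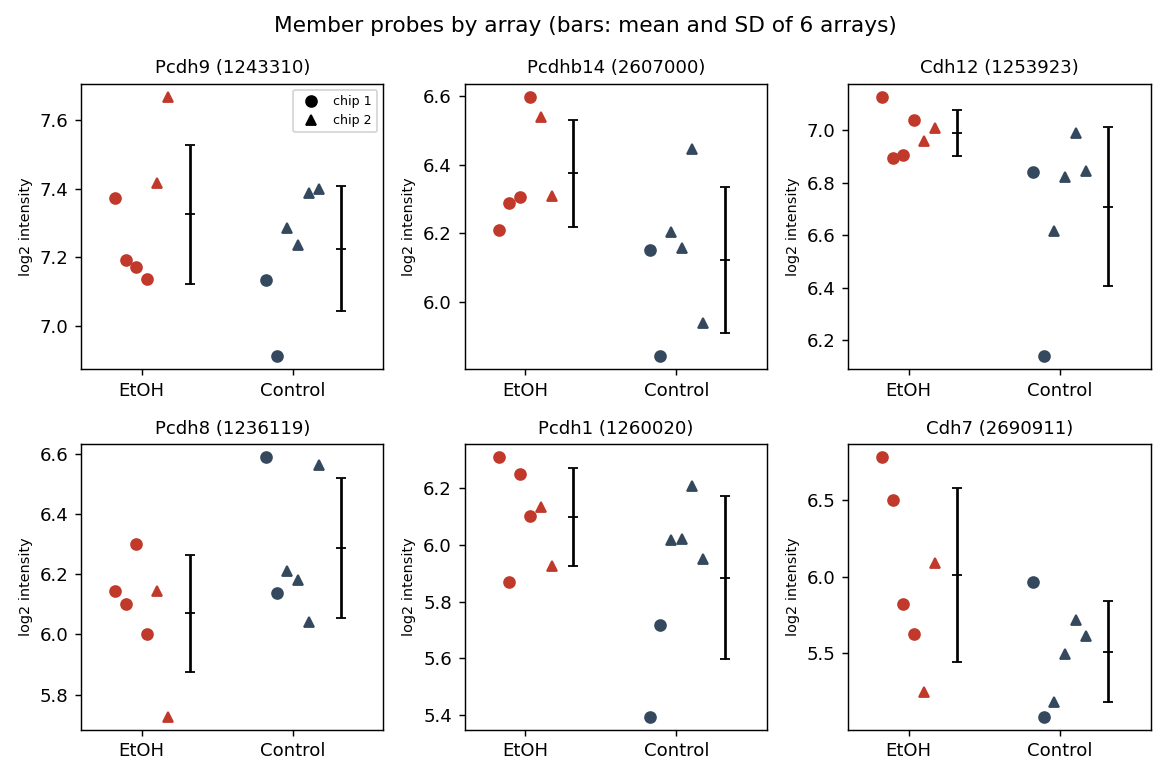
Log2 intensity (vertical axes, each on its own range) on each of the 6 EtOH and 6 Control arrays for the 5 member probes with an unadjusted p under 0.05 and for Cdh7, the member of largest difference with background correction; circles are the first chip, triangles the second, and bars give mean and SD of 6 arrays. Every panel has EtOH and Control arrays that overlap.

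No type I cadherin passed the unadjusted threshold. Cdh2 (N-cadherin), the main classical cadherin of hippocampal synapses, gave 0.08 and -0.04 by 2 probes with wide intervals (-0.26 to 0.41 and -0.40 to 0.33). Both probes read low. The first was detected on 8 of 12 arrays, with means of 5.36 for EtOH and 5.31 for Control. The second was detected on all 12, with a mean of 5.76 in each group. Cdh4 (R-cadherin) gave 0.0010 by probe ILMN_1260036. By the other it read 5.17, 5.38 and 5.83 in EtOH and 5.08, 5.23 and 5.67 in Control, with overlapping groups and a difference of 0.10. That probe was detected on 6 of 12 arrays. Cdh1 (E-cadherin), of epithelia, gave -0.08. Cdh15 (M-cadherin), known from skeletal muscle and its satellite cells, read 5.83, 6.22 and 6.26 in EtOH and 6.15, 6.35 and 6.47 in Control. No EtOH array exceeded the Control median, although Control 3 was lower than 4 of the EtOH arrays. The difference of Cdh15 was -0.18 (interval -0.37 to 0.01).

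Cdh12, a type II cadherin of brain also called N-cadherin 2, had the highest difference among members at an unadjusted p under 0.05. Its probe ILMN_1253923 read 6.90, 6.98 and 7.13 in EtOH and 6.14, 6.83 and 6.99 in Control. Every EtOH array stood above the Control median within a narrow band, while Control 2 was far below the rest. Means came to 6.99 ± 0.09 for EtOH and 6.71 ± 0.30 for Control (SD, n = 6 each). The difference was 0.33 (interval 0.07 to 0.60, limma adjusted p = 1.00), and 0.16 without Control 2. Control 2 also had the highest choroid plexus mean (11.60). On the other arrays rich in choroid plexus transcripts, EtOH 2, EtOH 4 and Control 4, ILMN_1253923 read 6.90, 7.04 and 6.82. The part of that tissue in the value was not tested. The second Cdh12 probe gave 0.24 (interval -0.02 to 0.51) and did not depend on Control 2, without which it was 0.285. It read 6.47, 6.81 and 7.29 in EtOH and 6.48, 6.52 and 6.72 in Control, where 5 of 6 EtOH arrays exceeded the Control median and EtOH 1 was highest. Without EtOH 1 it was 0.17. Within the chips the 2 Cdh12 probes gave 0.50 and 0.21 on the first chip and 0.16 and 0.27 on the second.

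With background correction, Cdh7 had the largest difference of the tested members and also the largest residual SD, 0.47. Its tested probe was detected on 5 EtOH and 4 Control arrays. Other probes of Cdh7 were detected on no array and were not tested. The tested probe read 5.25, 5.96 and 6.78 in EtOH and 5.09, 5.56 and 5.97 in Control. EtOH 1, EtOH 2 and EtOH 6 lay above every Control array, and the other 3 EtOH arrays lay within the Control range. The difference was 0.41 with an interval of -0.13 to 0.94, and 0.18 without Control 2. Without background correction it was 0.156, below the 0.165 of Cdh12 ILMN_1253923. The same EtOH 1 and EtOH 2 had the highest mean of the 5 detected neocortex marker genes, 9.54 and 9.34, against 8.82 to 9.21 on the other EtOH arrays and 8.75 to 9.22 on Control arrays. Of the 7 genes of that list Rasgrf2 and Rspo1 did not pass the filter, and the part of neocortical transcripts in the Cdh7 value was not tested.

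None of the other type II cadherins passed the unadjusted threshold. Cdh6 read 5.64, 6.05 and 6.61 in EtOH and 5.65, 6.20 and 6.42 in Control, a wide and shared range (residual SD 0.35). Its difference of -0.02 stood between 0.29 on the first chip and -0.33 on the second. Cdh10, which with Cdh6 is needed for strong potentiation at mouse hippocampal synapses, gave 0.10 and 0.01. Cdh22 gave 0.0067, and the 3 tested probes of Cdh8, a cadherin of hippocampal and cortical synapses, gave 0.0045, -0.0030 and -0.01. The interval of the steadiest Cdh8 probe ran from -0.16 to 0.13. Cdh13 (T-cadherin), which lacks the inner part that binds catenins and is held by a lipid anchor, gave 0.08, 0.0020 and -0.02. By the probe with the highest difference it read 7.39, 7.60 and 7.79 in EtOH and 7.27, 7.52 and 7.87 in Control. By the probe with the lowest difference it read 7.54, 7.66 and 8.02 in EtOH and 7.46, 7.77 and 7.99 in Control, and the groups overlapped over most of their range for both.

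Probes of one gene need not read the same transcript, and those of Pcdh8, Pcdh10 and Cdh8, for example, are annotated to different ones. Of the 14 member genes with more than 1 tested probe, 5 had all probes on the same side of 0 (Cdh4, Cdh10, Cdh12, Pcdh20 and Pcdha7, all higher in EtOH) and 9 had probes on both sides. Some of these values were close to 0, such as 0.00051 for 1 Pcdh20 probe and 0.0010 for 1 Cdh4 probe. The same count was not made over all genes. Neighbouring genes gave differing values. On chromosome 15, Cdh6, Cdh9, Cdh10 and Cdh12 follow one another in the annotation, and their tested probes gave -0.02 for Cdh6, 0.10 and 0.01 for Cdh10, and 0.33 and 0.24 for Cdh12, with Cdh9 undetected. Pcdh20 and Pcdh9 are neighbours on chromosome 14, with the values above.

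Differences often had opposite signs on the 2 chips. Only 22 of 65 members (33.8%) had the same sign of difference on both chips, against 47.3% of all tested probes. Of these, 15 were higher in EtOH on both and 7 lower. The median member difference was 0.08 on the first chip and 0.02 on the second. Of the 5 probes with an unadjusted p under 0.05, those of Pcdh9, Pcdhb14, Cdh12 and Pcdh8 kept their sign on both chips and that of Pcdh1 did not. The chips themselves differed at a limma adjusted p under 0.05 for 0 of 65 members and 0.773% of all probes. At an unadjusted limma p under 0.05 they differed for 6 of 65 members, against 3499 of 20172 probes in all (17.3%).

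**Figure D4:**
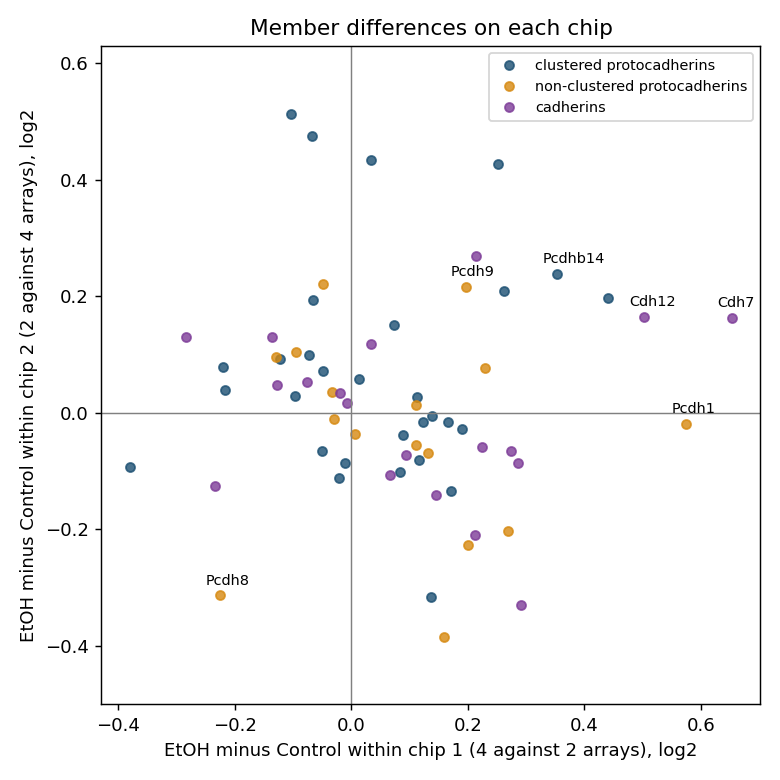
Difference between EtOH and Control of the 65 tested member probes within the first chip (horizontal axis, 4 EtOH and 2 Control arrays) and within the second (vertical axis, 2 EtOH and 4 Control arrays), in log2 intensity. Points in the upper right and lower left have the same sign on both chips, which holds for 22 of 65; Pcdh1 is far to the right but at -0.02 on the second chip.

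Genes that work with cadherins were likewise without a call. For each list, 1 probe per gene was used. Of the catenins, the inner partners of classical cadherins, 6 of 9 were tested, 4 with a higher and 2 with a lower value (median 0.06). Ctnna2, the neuronal alpha catenin, gave 0.14 (interval -0.0046 to 0.29), and Ctnnd2, the neuronal delta catenin, gave 0.12. Of the factors that act on the clustered promoters, 12 of 14 were tested, with 6 on each side and a median of -0.0054. Ctcf gave 0.03, Smchd1, which silences the cluster, 0.05, the methyltransferase Dnmt3b 0.02, and the H3K9 methyltransferase Setdb1 0.12. Smc3 of cohesin gave -0.12.

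Of the kinases, actin regulators and proteases that carry protocadherin signals, 12 of 14 were tested and 1 had a higher value and 11 a lower value. The sizes were small, with a median of -0.03, and 0 passed even the unadjusted threshold. Taok2, the kinase that binds Pcdh8 in rat neurons, gave -0.17 (interval -0.45 to 0.11), and Wasf1 of the WAVE complex, which clustered and delta protocadherins recruit, gave -0.09. Of the other superfamily members, 10 of 21 were tested (6 higher, 4 lower, median 0.01), among them Cdhr2 at -0.25 and the calsyntenin Clstn3 at 0.06. Of the nectins and afadin, which build adhesion beside cadherins, 4 of 5 were tested (2 higher, 2 lower, median -0.07). Nectin2 gave -0.14 (interval -0.35 to 0.07). Nectin3 was the only gene of these 5 lists with an unadjusted p under 0.05, with means of 10.27 ± 0.18 for EtOH and 10.42 ± 0.13 for Control (SD, n = 6 each). Adjusted for chip, Nectin3 gave -0.21 (interval -0.39 to -0.03, limma adjusted p = 1.00).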

How the data were processed

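Hippocampal RNA of 12 female mice was hybridised to Illumina bead arrays. The authors deposited, per the file headers, a signal intensity and a detection p-value per probe and array, not normalized, on a linear scale. They also deposited a table of intensities whose columns share their quantiles, used as an alternative. The submitters' processing notes name GenomeStudio 1.9.0. The build to which probes were annotated is not given in the sources used here.

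Intensities were background-corrected (normexp, background from the detection p-values), quantile-normalized and log2-transformed by neqc (limma 3.58.1, R 4.3.3, offset 16). Probes with a detection p-value under 0.05 on at least 6 of 12 arrays were kept, 20172 in all. Groups were compared two-sided with lmFit and eBayes, chip as a fixed term, with Benjamini-Hochberg adjustment over all kept probes and a threshold of 0.05. Intervals are 95% confidence intervals of that fit. Precision is limited by the number of arrays. The code was tested on simulated data.

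Gene symbols come from the platform annotation. All 144 member probes matched 1 gene each, and 0 symbols changed against GRCm38.p6. Values are given for the 5 probes of smallest unadjusted p per direction, the 2 of smallest p per class, the 2 of largest residual SD per family and, from each list of partner genes (not the marker lists), the 2 of smallest p; other genes, markers among them, were named after their values were seen. Members and lists were chosen with earlier results of these data known. Alternatives changed background correction, normalization, filter, chip term, variance model and replicate block, and left out each array in turn.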

Additional observations from a re-analysis of the deposited data

Results flagged for a closer look

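None of the 52 sets of 6 arrays (26 member probes in each group) held an array that stood apart by Dixon's criterion, where chance marks about 1 in 20.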

How the results depend on the processing

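The count of members called stayed at 0 in every alternative run, and the count at an unadjusted p under 0.05, 5 as reported, was 3 without background correction, with median scaling, in the authors' normalized table, with detection p under 0.01 on all arrays (39 members) and with trended robust variance, 9 with no filter (144 probes), and 2 to 7 with 1 array left out, lowest without Control 2. The median residual SD, 0.20 as reported, was 0.105 without background correction and 0.106 in the authors' table, where the 5 differences were also smaller (Pcdh9 0.12, Pcdhb14 0.12, Cdh12 0.17, Pcdh8 -0.11, Pcdh1 0.10). For the chip, 1 member was called with median scaling and 1 with the strict filter. The median of the non-clustered protocadherins was 0.11 on the first chip alone. Leave-one-out medians ran from 0.0096 to 0.07 for clustered protocadherins, 0.0018 to 0.06 for non-clustered ones and -0.0037 to 0.10 for cadherins. Same-numbered EtOH and Control arrays share only a number (correlations of deviations -0.13 to 0.244, 1 of 6 best with its own number). With the replicate block, 4 members had an unadjusted p under 0.05 and 0 were called.

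Of the 26 probes followed one by one, 13 kept their sign throughout and 13 did not, none of them called. Signs turned with median scaling for Cdh13 ILMN_2659503 (0.0128) and Pcdh9 ILMN_3028837 (0.0115). Without the chip term they turned for Pcdha11 (-0.0202), that Pcdh9 probe (0.107) and Cdh6 (0.0399), and with chip as a random block for the same probes (-0.0116, 0.0749 and 0.0245). On the first chip alone they turned for Pcdhgb6 (-0.0671), both Pcdh20 probes (-0.0492 and -0.0338), Cdh13 ILMN_2659503 (0.0666), Pcdha11 (-0.0731), Pcdh7 (0.159) and Cdh6 (0.292), and on the second for Pcdh1 (-0.0190), Pcdhb22 (0.0782), Pcdh17 (-0.0560), Cdh4 (-0.0866), Cdh13 ILMN_2423843 (-0.0589) and Pcdh9 ILMN_3028837 (0.0954). Under the replicate block they turned for Pcdh17 (-0.0194), Pcdh20 (-0.00497 and -0.0626), Cdh13 ILMN_2659503 (0.0764), Pcdh9 ILMN_3028837 (0.0634) and Cdh6 (0.0556), and without the 4 choroid plexus arrays, chosen after seeing the data, for Pcdh17 (-0.0444) and Pcdh7 (0.0814). With 1 array left out, values ran from -0.0755 to 0.0866 for Pcdha11, -0.0274 to 0.1445 and -0.0908 to 0.0749 for the Pcdh20 probes, -0.121 to 0.0389 for Cdh13 ILMN_2659503, -0.167 to 0.0772 for Pcdh9 ILMN_3028837, -0.228 to 0.114 for Cdh6, -0.0309 to 0.0625 for Pcdh17 and -0.452 to 0.0884 for Pcdh7. The cause was not tested.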
